A study of Mus musculus with 6 samples.

Results

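The 7 genes described here, Cd74, H2-Aa, H2-Ab1, H2-Eb1, H2-DMa, H2-DMb1 and Ciita, make up the core of MHC class II antigen presentation in the mouse. They were selected by name from 26264 genes in a table of TPM, a relative transcript level corrected for gene length, because most of them were far higher in 1 of the 6 libraries than in the other 5. That contrast between libraries chose the genes, so it is described below and not tested. The libraries hold ribosome-bound mRNA of brain from mice that carry Gfap-Cre and RiboTag, which puts an epitope tag on ribosomes of cells with Cre activity. All 6 libraries share this genotype. By label, 3 libraries belong to the control diet and 3 to a diet with PLX5622 at 1200 ppm, both kept up for 1 month, and the 3 of a diet are biological replicates. The labels used here state no age. PLX5622 inhibits the receptor Csf1r and depletes microglia. Gfap drives Cre in astrocytes, and per the labels some neurons and oligodendrocytes were captured too. Libraries are named below by label, as control 1 to 3 and PLX5622 1 to 3.

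MHC class II molecules show peptides from endocytosed proteins to CD4 T cells. An alpha and a beta chain are assembled on the invariant chain, whose remnant is later exchanged for a peptide with the help of the DM molecule. In healthy brain, class II is known mainly from macrophages and dendritic cells at the borders and less from microglia, and astrocytes in culture make it when given interferon gamma. Transcription of these genes depends on Ciita, a coactivator that does not bind DNA itself but joins the factors RFX, CREB and NF-Y on the X, X2 and Y boxes of their promoters.

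The promoters are shown so that these boxes can be seen in 3 members that were highest in the same library. RefSeq promoter entries of build GRCm38.p6 (250 bases before to 50 after the start) were at hand for 4 of the 7 members: H2-Aa, H2-Eb1, H2-DMa and H2-DMb1. In the stretches of H2-Eb1 (chr17:34305733-34305882, plus strand), H2-DMb1 (chr17:34153042-34153191, plus strand) and H2-Aa (chr17:34287808-34287957, minus strand) capitals mark the box letters. In H2-Eb1 and H2-DMb1 these are AACNGATG, a part of the X box, and GATTGG, the core of the Y box, which H2-Eb1 also holds in reverse as CCAATC. In H2-Aa they are TGACGTCA, a palindrome that CREB-type factors bind at X2 sites, and the Y core. All letters read along the gene's own strand.
H2-Eb1: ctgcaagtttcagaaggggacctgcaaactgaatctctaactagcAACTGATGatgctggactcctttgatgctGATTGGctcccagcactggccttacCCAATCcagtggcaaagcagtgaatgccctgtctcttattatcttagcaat
H2-DMb1: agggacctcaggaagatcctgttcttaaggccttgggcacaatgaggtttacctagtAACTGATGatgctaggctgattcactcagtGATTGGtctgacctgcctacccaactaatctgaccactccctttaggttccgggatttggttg
H2-Aa: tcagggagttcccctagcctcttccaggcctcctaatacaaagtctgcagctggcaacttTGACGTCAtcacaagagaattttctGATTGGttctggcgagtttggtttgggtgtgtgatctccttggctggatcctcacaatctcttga

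The X part AACNGATG, searched on both strands, lay in 2.32% of all 32851 promoter entries and in those of H2-Eb1 and H2-DMb1. The Y core GATTGG lay in 16.1% of entries and in those of all 4 members, although in H2-DMa it was found at a second start and not at the first. TGACGTCA lay in 1.79% of entries and, among members, in that of H2-Aa. The X part began 89 bases before the start in H2-Eb1 and 92 before it in H2-DMb1, and the Y core followed 29 and 30 bases further on. An X part followed by a Y core at a spacing of 29 to 30 bases on the gene's strand was found in 5 of the 32851 entries. Of these, 4 belong to class II genes, namely H2-Eb1, H2-DMb1, H2-Eb2 and H2-DMb2, and the fifth to BC051142. The letters and the spacing were chosen after these promoters had been read, a match is not a shown binding site, and the last pair of class II genes was near 0 TPM in the libraries.

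Microglial transcripts go against the labels of control 3 and PLX5622 3. The 16 genes of the microglia list summed to 147 and 102 TPM in control 1 and control 2 but to 53.0 TPM in control 3. The sums were 58.3, 51.9 and 82.0 TPM in PLX5622 1, 2 and 3. The log2 fold changes in the authors' deposited table, regressed on the 6 libraries over 13196 genes, gave negative weights to control 1, control 2 and PLX5622 3 and positive weights to control 3, PLX5622 1 and PLX5622 2. The weights were −0.332, −0.551 and 0.382 for control 1, 2 and 3, and 0.489, 0.402 and −0.39 for PLX5622 1, 2 and 3. The same fold changes correlated with the differences by label at a Pearson's r of 0.513. The signs of the weights for control 3 and PLX5622 3 thus differ from the labelled grouping. How well the weights describe that table was not tested, and its values are given apart from those by label. Whether the headings of control 3 and PLX5622 3 are right was not tested, and the sign of each class II difference by diet holds only for the labels as given. TPM keeps no read depth, so depth per library is unknown. Genes at 1 TPM or more numbered 12871 to 13181 per library. In such bulk libraries, fewer cells of a type and less RNA per cell cannot be told apart. Transcripts of the labelled cell type were abundant, with the 10 astrocyte genes between 23927 and 42183 TPM in sum. These sums were 23927 to 33466 TPM in control and 38038 to 42183 TPM in PLX5622 libraries. The 10 neuron genes went the other way, with 1760.5 to 2076.4 TPM in control and 1069.8 to 1637.2 TPM in PLX5622 libraries. Sums of the oligodendrocyte list overlapped between the diets. The part of this makeup in the class II differences was not tested.

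Cd74 encodes the invariant chain, which holds new class II molecules in the endosomal route. Its TPM was 2.40, 1.71 and 27.0 in control 1, 2 and 3, and 0.777, 0.428 and 0.378 in PLX5622 1, 2 and 3. The library labelled control 3 was 11.2-fold above the next highest, control 1, and the groups as labelled did not overlap. Among all genes of a library ordered by TPM, Cd74 was number 4632 in control 3 and between 11168 and 14465 in the rest.

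H2-Aa and H2-Ab1 encode the alpha and beta chains of I-A, a classical class II molecule of the mouse. For H2-Ab1 the control libraries read 2.07, 1.95 and 20.2 TPM and those of PLX5622 read 2.19, 0.846 and 1.74 TPM. For H2-Aa they read 1.19, 0.676 and 11.4 TPM, against 0.325, 0.429 and 0.263 TPM. Control 3 exceeded the next library 9.21-fold for the beta chain and 9.58-fold for the alpha chain. The second highest library was PLX5622 1 for H2-Ab1 and control 1 for H2-Aa.

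H2-Eb1 encodes the beta chain of I-E. Its TPM was 1.56, 0.752 and 5.72 in the control libraries and 0.722, 0.387 and 0.641 in the PLX5622 libraries, and control 3 was 3.67-fold above the next. H2-Ea, the partner alpha chain, which some mouse strains lack as a functional gene, was listed at 0 in all 6 libraries. H2-Eb2, a further beta chain gene, was at 0.0136 TPM in control 3 and listed at 0 elsewhere.

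H2-DMa and H2-DMb1 form DM, which catalyses peptide loading in endosomes. The TPM of H2-DMa was 5.13, 6.19 and 8.42 in the control libraries and 5.11, 3.04 and 3.35 in the PLX5622 libraries. Control 3 was again highest, but at 1.36-fold over control 2 it stood much closer to the rest than for Cd74. H2-DMa overlaps Brd2 in the RefSeq annotation of GRCm38.p6, and in these libraries without strand information reads of the overlap cannot be told apart. H2-DMb1 was at 0.816, 0.559 and 2.18 TPM against 0.571, 0.283 and 0.463 TPM, with control 3 at 2.67-fold over control 1. H2-DMb2, its near copy with which it can share reads, did not exceed 0.0991 TPM. H2-Oa and H2-Ob, the chains of the DM inhibitor DO, did not exceed 0.120 and 0.0504 TPM.

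Ciita, the coactivator on which class II transcription depends, was the member that did not share the pattern. Its TPM was 0.112, 0.232 and 0.199 in the control libraries and 0.166, 0.0875 and 0.119 in the PLX5622 libraries. The highest value was that of control 2, and control 3 lay inside the range of the other 5. Ciita had a mean of 19.2 normalized counts per library in the authors' deposited table, against 164 for Cd74 and 239 for H2-DMa. H2-DMb1 was nearly as low, at 22.3, and H2-Eb1 was at 58.4. The values of Ciita and H2-DMb1 thus rest on fewer reads than those of Cd74 and H2-DMa. In GRCm38.p6 it overlaps Dexi and a further locus.

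**Figure D1:**
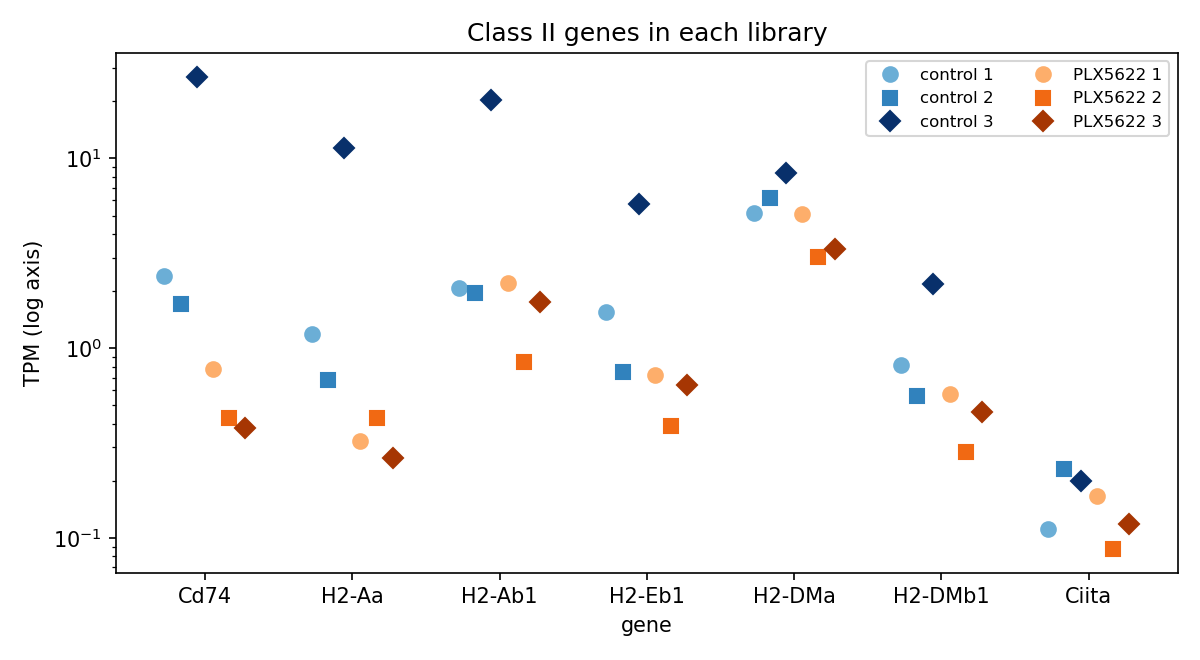
TPM on a log axis of each class II gene, with 1 point per library coloured by diet label. For Cd74, H2-Aa, H2-Ab1 and H2-Eb1 the control 3 point (dark blue diamond) lies 3.67-fold to 11.2-fold above the next library, while for Ciita it lies among the others.

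Summed over the 7 genes, the library labelled control 3 reached 75.1 TPM. Control 1 and 2 reached 13.3 and 12.1 TPM, and PLX5622 1, 2 and 3 reached 9.86, 5.50 and 6.95 TPM. Control 3 was 5.65-fold above control 1, the next highest. The makeup of the sum also differed. DM chains made up 14.1% of it in control 3 and between 44.8% and 60.4% in the others, where H2-DMa was the most abundant member every time. Cd74 made up 35.9% in control 3, 18.1% and 14.2% in control 1 and 2, and 5.43% to 7.88% in the PLX5622 libraries.

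The 2 chains of I-A kept a ratio of alpha to beta transcript, in TPM, of 0.564 in control 3, 0.574 in control 1 and 0.508 in PLX5622 2. It was 0.346 in control 2 and near 0.15 in PLX5622 1 and 3 (0.148 and 0.151). Cd74 transcript per H2-Ab1 transcript was highest in control 3, at 1.33, with 1.16 in control 1, 0.876 in control 2 and 0.217 to 0.506 in the PLX5622 libraries. H2-Eb1 per H2-Ab1 was lowest in control 3, at 0.283, against 0.329 to 0.751 in the others. The read counts per library behind these ratios are unknown. Mean normalized counts over the libraries, control 3 included, were 164 for Cd74, 122 for H2-Ab1 and 58.4 for H2-Eb1 in the authors' deposited table. For H2-Aa no such mean was used.

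**Figure D2:**
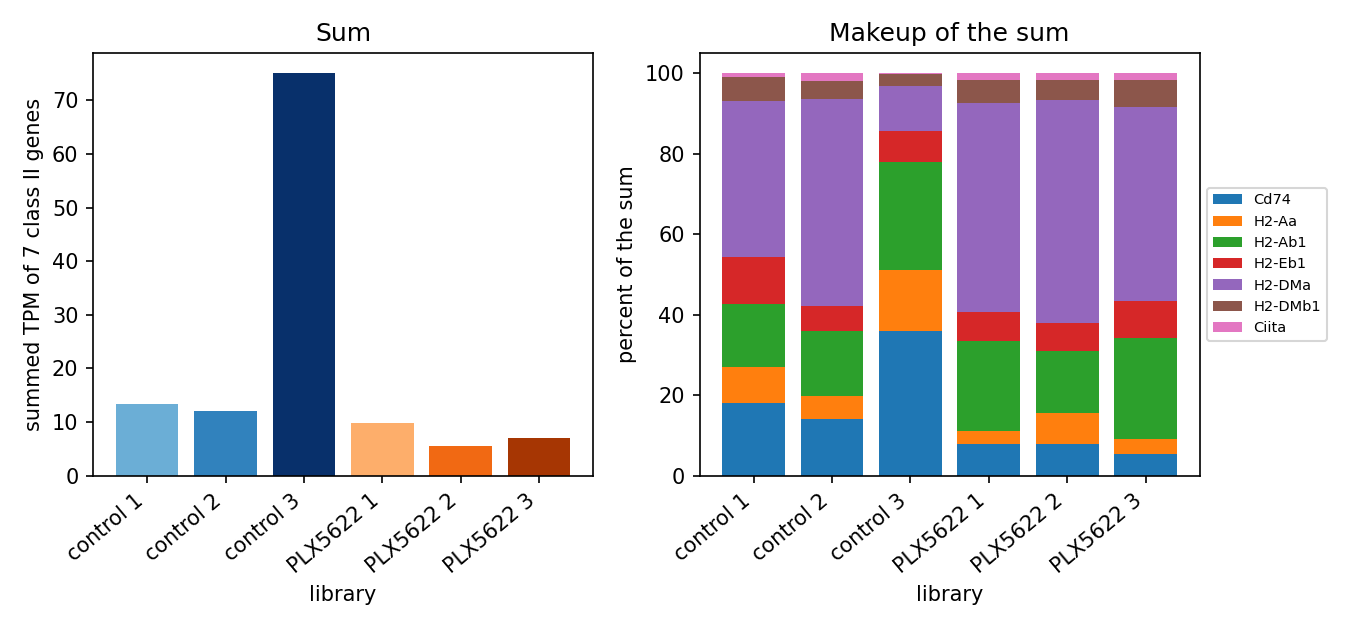
Left, summed TPM of the 7 class II genes in each library, coloured by diet label. Right, the percent of that sum from each gene, with DM chains (purple and brown) at 14.1% in control 3 and 44.8% to 60.4% in the other 5 libraries.

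In the RefSeq gene order of chromosome 17, members of the list stand among genes of class I peptide supply. From H2-DMa to H2-Ea the genes run H2-DMa, H2-DMb2, H2-DMb1, Psmb9, Tap1, Psmb8, Tap2, H2-Ob, H2-Ab1, H2-Aa, H2-Eb1, H2-Eb2 and H2-Ea. The excess of control 3 over the median of the other 5, in log2(TPM + 1), was 3.12 for H2-Aa, 2.84 for H2-Ab1 and 1.97 for H2-Eb1. For H2-DMb1 and H2-DMa it was 1.03 and 0.63. Psmb9 and Psmb8, immunoproteasome subunits between them, had 2.96 and 2.51, and Tap1 and Tap2, the peptide transporter, 1.28 and 0.46. H2-Ob and H2-DMb2, interspersed in the same stretch, had −0.022 and 0.030. Near-silent genes thus lay among genes with an excess in control 3 along this stretch. Cd74 and Ciita lie on other chromosomes, and the excess of Cd74 was 3.98 and that of Ciita 0.10.

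**Figure D3:**
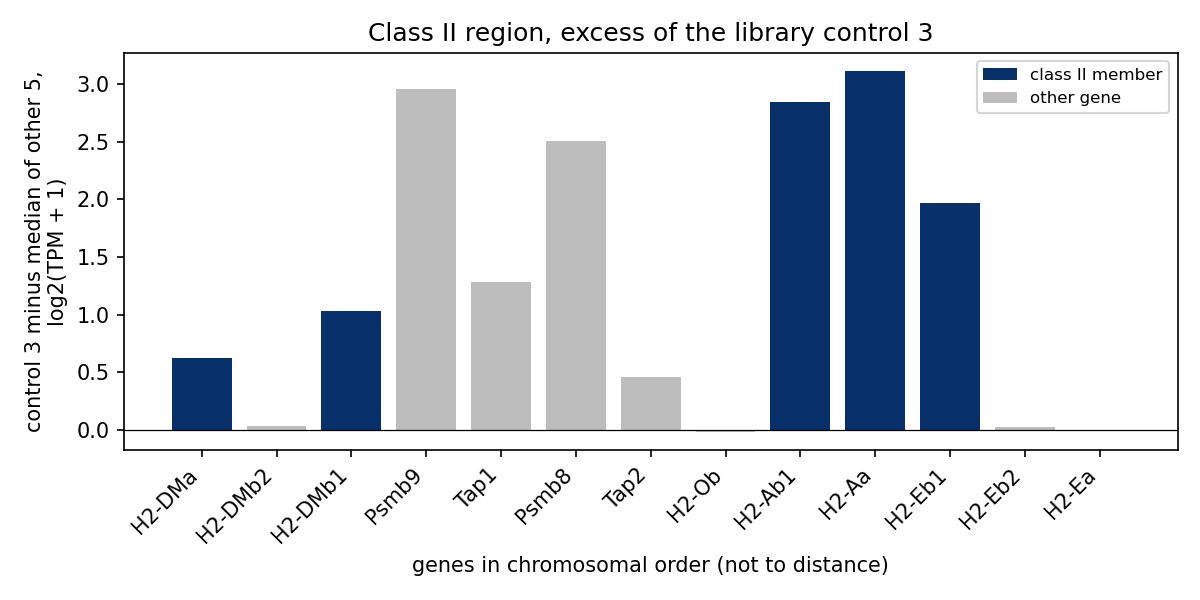
Excess of the library labelled control 3 over the median of the other 5 libraries, in log2(TPM + 1), for 13 genes in chromosomal order (dark, class II members; grey, other genes). H2-Aa, Psmb9 and H2-Ab1 have excesses of 3.12, 2.96 and 2.84, while H2-DMb2, H2-Ob, H2-Eb2 and H2-Ea stay near 0.

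To read the class II values against the rest of the table, the gap between a gene's highest and second highest library was taken for the 13084 genes whose mean reached 1 TPM. A gap of at least 1 in log2(TPM + 1) with control 3 on top was found for 15 genes, or 0.115% of those tested. Of these, 4 are members: Cd74 (gap 3.04), H2-Ab1 (2.73), H2-Aa (2.50) and H2-Eb1 (1.39). Because the members were chosen on this very contrast, their share is not set against the background. The other libraries had 0 to 5 such genes each. Control 3 was the highest library, by any gap, for 10.4% of tested genes. It was so for 6 of the 7 members, H2-DMb1 with a mean under 1 TPM among them, and nothing is read from this count either.

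The 11 other genes with such a gap in control 3, and Tap1, next in order, are the 12 most like the class II members. In order of gap these are Igtp, Psmb9, Psmb8, H2-T23, Irgm2, H2-Q4, Gbp2, Bst2, Cxcl10, Irgm1, Isg15 and Tap1. Of these, 8 are on the list of interferon-induced genes, 3 on that of class I presentation, and Bst2, an interferon-induced surface protein, on neither. Igtp, an interferon-induced GTPase, was at 57.1 TPM in control 3 and between 7.40 and 8.54 TPM in the others. Psmb9 was at 29.3 TPM against 2.58 to 4.89 TPM, and the chemokine Cxcl10 at 8.77 TPM against 1.37 to 2.52 TPM. Pearson's r of their log2(TPM + 1) with the mean of the 7 members ran from 0.837 to 0.982 over 6 libraries, and each such r rests on control 3. H2-T23 and H2-Q4 have near copies, so their reads are uncertain.

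The promoter of Igtp (chr11:58199452-58199601, plus strand, GRCm38.p6, RefSeq) is shown because this gene had the largest gap outside the members and its letters differ from theirs. Capitals mark AAANNGAAA, a part of the interferon-stimulated element.
Igtp: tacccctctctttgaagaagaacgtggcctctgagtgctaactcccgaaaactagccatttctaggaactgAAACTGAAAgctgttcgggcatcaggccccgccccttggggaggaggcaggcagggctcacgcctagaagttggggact
Searched on both strands, AAANNGAAA lay in 10.6% of all promoter entries, in 8 of the 12 like genes and in 1 of the 4 members, H2-DMa, at its second start.

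The other listed genes of the class II route did not stand apart in control 3. Of 10 processing genes, 1 was highest there (Ctsb, a cathepsin, by a gap of 0.01) and the median excess was −0.074, against −0.020 over all tested genes. Ctss, the protease that trims the invariant chain, had 14.2, 7.48 and 0.844 TPM in control 1, 2 and 3, and 1.50, 0 and 2.93 TPM in PLX5622 1, 2 and 3. Its order over libraries was unlike that of Cd74, whose remnant it cuts, since control 3 was among the low ones. Ifi30, a thiol reductase of endosomes, was highest in control 1, at 9.06 TPM, with 6.13 TPM in control 3. Ctsl and Lgmn, a further cathepsin and an endopeptidase, ranged from 91.8 to 133 TPM and from 101 to 124 TPM over the 6 libraries.

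None of the 9 listed factors that meet at class II promoters was highest in control 3, and their median excess was −0.12. Rfx5, the DNA-binding subunit of RFX, was at 6.41 TPM in control 3 and between 4.45 and 8.14 TPM elsewhere. Among 7 tested genes of interferon gamma signalling, 3 were highest in control 3, none with a gap of at least 1. Irf1, a factor that interferon induces and that acts on the Ciita gene, was at 7.89 TPM in control 3 against 3.58 to 5.71 TPM. Ifng itself was listed at 0 in control 3 and did not exceed 0.0334 TPM elsewhere. The receptor chains Ifngr1 and Ifngr2 were at 26.2 and 24.3 TPM in control 3, inside the range of the others.

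The interferon-induced genes were highest in the same library as the class II genes. All 20 of its genes were highest in control 3, 14 of them with a mean at or above 1 TPM, against 10.4% of all tested genes. A gap of at least 1 was reached by 8 of the 14, against 0.115%, and the median excess was 1.51 against −0.020 over all tested genes. These 8 are among the 15 genes behind the 0.115% and among the 12 most like the members. The list was chosen with earlier results of these data known, so these shares describe it and test nothing. Iigp1, a further interferon-induced GTPase, was at 3.47 TPM in control 3 and between 0.111 and 0.341 TPM elsewhere. Of tested genes on the lists of T cell contact and of Cd74 partners, 1 of 3 and 2 of 4 were highest in control 3, none with a gap of at least 1. Cd274, a ligand that restrains T cells and responds to interferon, was at 6.29 TPM against 1.46 to 3.23 TPM, while Cd80, Cd86 and Cd40, the main costimulators, stayed at or below 0.231 TPM in all libraries. Mif, the cytokine that binds Cd74 on the cell surface, was highest in control 1, at 1238 TPM, with 901 TPM in control 3.

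**Figure D4:**
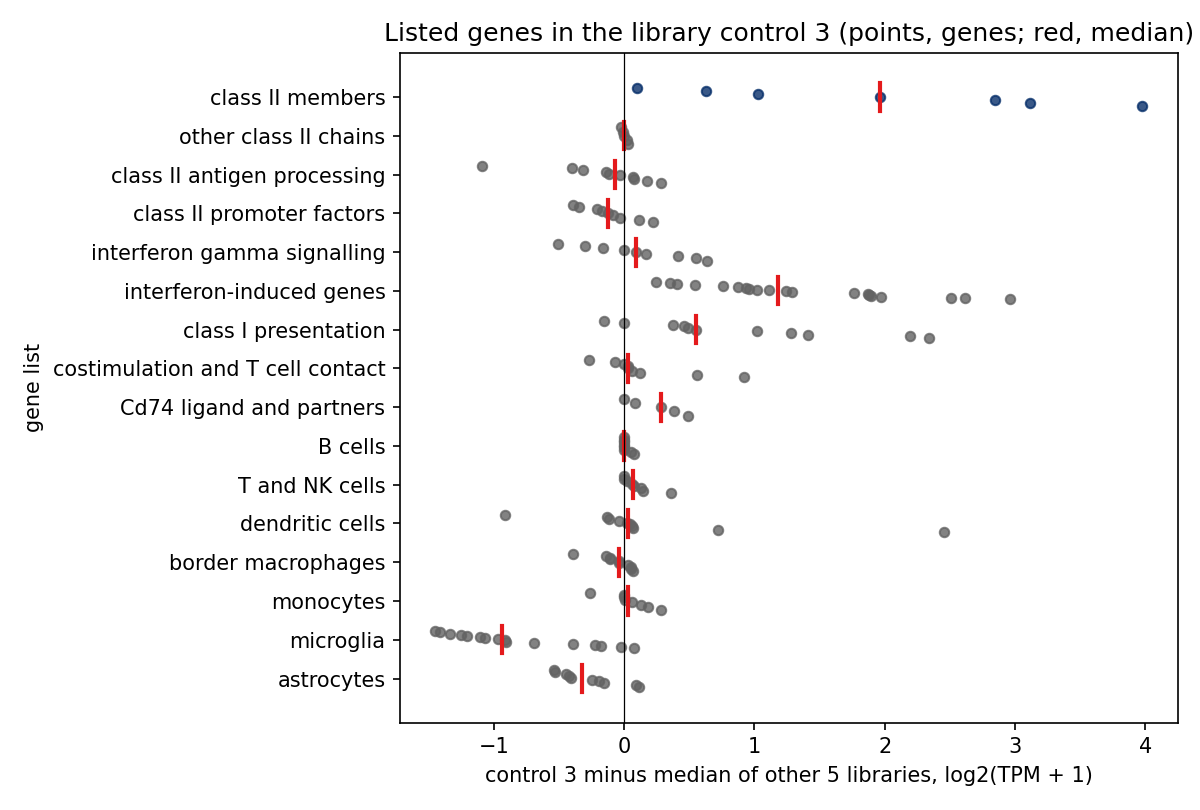
Excess of the library labelled control 3 over the median of the other 5 libraries, in log2(TPM + 1), for each gene of 16 lists, with the median over all genes of the list, tested or not, in red. Class II members, interferon-induced genes and class I genes lie to the right, the processing and promoter factor lists lie around 0, and microglia genes lie to the left.

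Cell types known for class II were read from their own markers in control 3. Of the 10 border macrophage genes, Pf4, Ms4a7 and F13a1 were at 0 there, and the list summed to 0.512 TPM against 0.288 to 2.06 TPM in the other libraries. Among 8 B cell genes in the table, 5 were at 0 in control 3, including Ms4a1 and Cd79b, and the sum was 0.186 TPM against 0.0652 to 0.235 TPM. Dendritic cell genes summed to 69.9 TPM against 12.8 to 24.3 TPM, but without Bst2 the remaining 9 summed to 2.81 TPM against 1.37 to 4.39 TPM. These 9 hold Siglech, which is also on the microglia list. It was at 2.06 TPM in control 1 and 0.0370 TPM in control 3, so the upper end of that range rests partly on it. Of the 10 dendritic cell genes, 4 were highest in control 3, Bst2 among them. Of 16 microglia genes, none was highest in control 3 and none was at 0 there, with Csf1r at 0.118 TPM and C1qa at 0.764 TPM.

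Markers of T and NK cells were higher in control 3 together with the class II genes, at very low levels. The 8 genes in the table summed to 0.592 TPM there and to 0 to 0.146 TPM in the others. Of the 7 above 0 in any library, 6 were highest in control 3, Cd2 and Klrb1c were at 0 in it, and Nkg7, a cytotoxic granule protein, led at 0.282 TPM. Monocyte genes summed to 1.37 TPM against 1.04 to 1.26 TPM. Most of that was Vcan, which was lowest in control 3, and the 7 genes without it summed to 0.561 TPM there against 0 to 0.124 TPM. Ly6c2 was at 0.216 TPM in control 3 and at 0 in the rest. The part of these cells in the class II values was not tested.

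Between the diets as labelled, no class II gene was called. Of the 7 members, 5 had a mean at or above 1 TPM, and without control 3 this holds for 3, Cd74, H2-Ab1 and H2-DMa. By limma on log2(TPM + 1) with Benjamini-Hochberg adjustment, 0 of these 5 and 0 of all 13084 genes passed 0.05 (0% called), with 2974 genes at an unadjusted p under 0.05. Since control 3 chose the members, differences are given with their SE and without p. PLX5622 minus control, in log2(TPM + 1), Cd74 differed by −2.07 ± 0.72 (SE, n = 3), H2-Aa by −1.42 ± 0.60 and H2-Ab1 by −1.19 ± 0.64. H2-Eb1 differed by −0.98 ± 0.40 and H2-DMa by −0.65 ± 0.21. The median of the 5 was −1.19, and that of all tested genes 0.089. Nothing is read from this distance, since control 3 chose the members and H2-Aa and H2-Eb1 reached the mean of 1 TPM only through it. Without control 3 the median of the same 5 was −0.48. On the TPM scale Cd74 had a mean of 10.4 ± 14.4 in control and 0.528 ± 0.218 in PLX5622 libraries (SD, n = 3), so that the control SD exceeded the control mean.

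Without control 3 the class II differences by label were smaller and still negative. Cd74 differed by −1.0 ± 0.19 (log2, SE, 2 control and 3 PLX5622 libraries), H2-DMa by −0.48 ± 0.22 and H2-Ab1 by −0.25 ± 0.23. H2-Aa and H2-Eb1, then under the mean of 1 TPM, differed by −0.52 and −0.43. In that fit limma again called 0 genes. The remaining control libraries are the 2 with the largest sums over the microglia list, and the part of microglial transcripts in these differences was not tested. The groups as labelled did not overlap, with control higher, for 4 of the 7 members (Cd74, H2-Aa, H2-Eb1 and H2-DMa), and for 9.39% of all tested genes. Nothing is read from these shares. Control 3 chose the members, and H2-Aa and H2-Eb1 reached the mean of 1 TPM only through it. For H2-DMa and H2-Eb1 the margin was small, with the lowest control library at 5.13 and 0.752 TPM and the highest PLX5622 library at 5.11 and 0.722 TPM.

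Leaving out control 2 or PLX5622 1 changed the count of calls from 0, in the second case to 36 genes with 0 members among them. When control 2 was left out, limma called all 5 tested members lower, but it then called 28.7% of all genes. That fit keeps control 3, which chose the members. H2-Aa and H2-Eb1 reached the mean of 1 TPM only through control 3. Nothing is read from the count of members called. Of the 56 tested genes from the other lists of the class II route and its surroundings, 0 passed by label (limma adjusted p of 0.205 at the lowest) and 23 were positive, with a median of −0.12. That median turned to 0.14 without control 3, with 35 of 55 positive. The promoter factors had a median of 0.33 with 7 of 9 positive over all 6 libraries, and of 0.33 with 7 of 9 positive without control 3. The interferon-induced genes had a median of −0.44 with 12 of 14 negative over all 6 libraries, which turned to 0.15 with 8 of 13 positive without control 3. Class I genes turned likewise, from −0.33 to 0.12. Without control 2, 19 of the 56 were called, 8 higher and 11 lower.

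The authors' deposited table does not name the numerator of its fold changes, so no direction by diet is given for it. The authors' deposited table gave negative log2 fold changes to the microglia genes Tmem119 (−3.10), Trem2 (−3.18) and Tyrobp (−3.92), with adjusted p of 0.0024, 0.0030 and 0.0024. It gave Cd74 a log2 fold change of 2.57 (SE 1.66, 95% interval −0.68 to 5.81) and H2-Ab1 one of 1.97 (SE 1.21). For H2-Eb1, H2-DMb1 and H2-DMa the authors' deposited table gave 1.12, 0.64 and 0.11, and for Ciita −0.083. Of 6 members with a value, 5 were positive and 0 had p under 0.05, and 14 of 20062 genes (0.0698%) passed the DESeq2 adjusted threshold in the authors' table. Its weights set control 3 with PLX5622 1 and 2, against control 1, control 2 and PLX5622 3. Both comparisons hold the same 6 libraries, and for Cd74, H2-Ab1, H2-Eb1, H2-DMa and H2-DMb1 the side that holds control 3 is the higher one in each. Since control 3 chose the members, nothing is read from this. H2-Aa and Iigp1, 2 of the genes that stood far apart in control 3, are the 2 genes above 0 TPM for which no value of that table was used here.

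**Figure D5:**
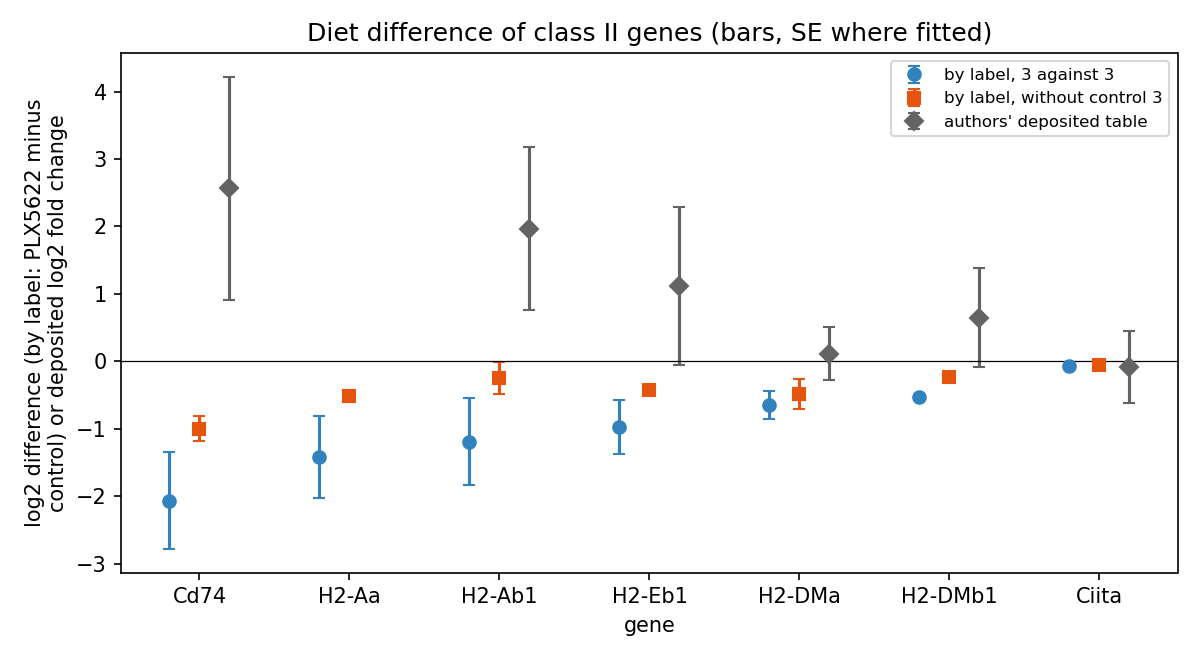
Difference of each class II gene between diets in log2(TPM + 1), PLX5622 minus control, by label with all libraries (blue circles) and without control 3 (orange squares), beside the log2 fold change of the authors' deposited table (grey diamonds). Bars are SE where a fit gave one. Cd74 is at −2.07, −1.0 and 2.57 in that order.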

How the data were processed

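The TPM values were made by the authors. The authors used R 4.1.0 with DESeq2 1.32.0, Subread 2.0.1 for featureCounts, and STAR 2.7.10a with mm39, per the submitters' processing notes. Annotation and gene lengths: not given in the sources used here. Per the labels, libraries were non-stranded. The authors' second table has, per the file headers, the form of DESeq2 output. Its baseMean is a signal, a mean of normalized counts, made by the authors. Its log2 fold change and SE were deposited without naming the numerator. Its test statistic is a score, and its p-values are raw and adjusted, as the authors deposited them.

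Depth is unknown, since TPM keeps none. Diets were compared by label, two-sided, on log2(TPM + 1) of the 13084 genes whose mean reached 1 TPM, using limma 3.58.1 (R 4.3.3, trend on). Differences on this scale understate the change of low genes. P-values were adjusted over all of them by Benjamini-Hochberg with a threshold of 0.05. The step was tested on simulated data with independent noise for each gene and library. Shifts shared by many genes of a library were not simulated, so that test does not cover them. Lists, gaps and promoter motifs were computed in Python 3.11.15. P-values measure the spread between the 3 libraries of a diet.

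The members and lists were chosen with earlier results of these data known. The text names all members and other class II chains, the most abundant or highest-standing genes of each list, and the 12 genes most like the members by gap. Other genes were named after their values were seen. Alternatives were other pseudocounts, filters and scaling, no trend, the replicate number as a block, and each library left out.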

Additional observations from a re-analysis of the deposited data

How the results depend on the processing

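By label, limma called 0 genes, 0 members and 0 listed genes of the route under both other pseudocounts, both other filters, size-factor scaling, no trend and the replicate block. Leaving out 1 library gave 0 to 3754 genes, 0 to 5 members and 0 to 19 listed genes, with 3754, 5 and 19 without control 2 and 36 genes without PLX5622 1. Without control 3 and PLX5622 3 together, chosen after seeing the data, 14 genes, 0 members and 1 listed gene (Ctss) were called. The replicate numbers pair no libraries (deviations of control and PLX5622 libraries with the same number correlated at −0.033, −0.27 and −0.15 across genes). With the replicate block the median difference of the members was −1.19 as before, since a block balanced over the diets can change only the SE of a difference. That median ran from −1.67 to −0.48 with 1 library left out, and all 77 differences of single members under the alternatives were negative. Most of these alternatives keep control 3, which chose the members, and all reuse the same libraries, so nothing is read from this count. The fold of the summed class II TPM, 5.65, became 8.18 without H2-DMa, the most abundant member in the other 5 libraries. Genes that stand apart in any library numbered 25, but 39 with a pseudocount of 0.1 and 42 with no filter, both of which admit smaller values; in control 3 they numbered 13 to 21. The cause of the other changes was not tested. Unknown depth limits the members near or under 1 TPM.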

Other observations

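Class I genes were also higher in the library labelled control 3, at far higher levels than class II. Of 9 listed class I genes whose mean reached 1 TPM, 8 were highest there, with a median excess of 1.02 in log2(TPM + 1), and the list summed to 1000.0 TPM against 489 to 596 TPM in the others. B2m, the light chain of class I, was at 548 TPM against 225 to 310 TPM, and H2-K1, a classical heavy chain, at 233 TPM against 140 to 198 TPM. Nlrc5, the class I counterpart of Ciita, was at 0.483 TPM in control 3 against 0.0323 to 0.166 TPM, whereas Ciita was inside the range of the other libraries.

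Genes that stood apart in other libraries were of other kinds. In PLX5622 2 they were Hspa1b, Cdkn1a, Nrros, Xbp1 and Fam43a, in control 2 Lars2, Mir6236 and Fibcd1, and in control 1 Fcer1g and Tyrobp, which are myeloid signalling adaptors.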
